A study of Mus musculus with 6 samples.

Results

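Mouse neutrophils of both progranulin genotypes carried mRNA for the inflammasome and for the interleukin-1 (IL-1) family after 6 h with live Candida albicans, and 10 of the 54532 genes measured are described here. They were chosen by gene symbol: Nlrp3, Pycard, Casp1, Casp4 and Gsdmd as inflammasome parts, Il1a, Il1b and Il18 as ligands, and Il1rn and Il1r2 as the antagonist and the decoy receptor. Each symbol was found once, and all 10 genes passed the filter on low values. The rule is a list of names and uses no measured value, but the names were chosen with earlier results of these data known.

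The libraries came from bone marrow neutrophils, 3 from wild-type (WT) cultures and 3 from progranulin knockout (PGRN KO) cultures, all labelled C57BL/6J. PGRN is the secreted growth factor encoded by Grn, and the knockout lacks it in every cell of the animal, not in neutrophils alone. The cells were taken with magnetic beads against Ly-6G, rested in culture and challenged with yeast for 6 h. The labels give as many yeast cells as neutrophils, and the study's text gives another ratio. WT and PGRN KO mice came from different suppliers, so supplier and genotype cannot be told apart. Neither the labels nor the methods state the animals' age or how many mice stand behind a culture, so p-values measure only the spread between these cultures, which may be technical. All 6 libraries were challenged, and the change caused by the yeast itself is not measured here.

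An inflammasome is a protein platform that forms in the cytosol when a sensor such as NLRP3 recruits the adaptor ASC, encoded by Pycard, and through it caspase-1. Caspase-1 cuts the precursors of IL-1β and IL-18 into their active forms and cuts gasdermin D, whose fragment opens pores in the membrane. IL-1α and IL-1β act on the same receptor, the antagonist encoded by Il1rn occupies that receptor without signalling, and the decoy receptor encoded by Il1r2 binds the ligands without signalling. Inflammasome activity depends on protein cleavage, so the mRNA levels given here show what could be made and not whether an inflammasome formed. In candidiasis, NLRP3 and IL-1 are known for their part in the recruitment of neutrophils.

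The sequences before the transcription starts are shown for the members on which the comparison turns, Nlrp3 and Il1rn, and for the ligands beside which Il1rn is read. Casp4 is added because its promoter, like that of Nlrp3, held a consensus site for the NF-κB family, the transcription factors that drive many of these genes. The sequences are the RefSeq mouse assembly GRCm38.p6, read 5′ to 3′ on the strand of the gene, and end at the base before the start. Capitals mark matches, on either strand, to the κB consensus and to the motifs of AP-1 and PU.1, factors active in myeloid cells, or to TATAAA, the box that sets the start of some genes. The PU.1 core was searched as GAGGAA. The AP-1 site was searched as TGANTCA.
Nlrp3, chr11:59541319-59541568, plus strand: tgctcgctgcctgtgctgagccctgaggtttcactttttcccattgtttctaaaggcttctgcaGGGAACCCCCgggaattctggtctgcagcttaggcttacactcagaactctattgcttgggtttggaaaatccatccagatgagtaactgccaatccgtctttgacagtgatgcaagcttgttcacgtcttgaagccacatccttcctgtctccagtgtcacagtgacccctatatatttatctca
Casp4, chr9:5308729-5308848, plus strand: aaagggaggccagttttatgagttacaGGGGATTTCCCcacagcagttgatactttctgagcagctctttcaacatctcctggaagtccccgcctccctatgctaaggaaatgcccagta
Il1a, chr2:129309973-129310092, minus strand: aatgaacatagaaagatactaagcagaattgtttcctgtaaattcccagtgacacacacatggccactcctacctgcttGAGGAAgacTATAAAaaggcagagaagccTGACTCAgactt
Il1b, chr2:129371140-129371259, minus strand: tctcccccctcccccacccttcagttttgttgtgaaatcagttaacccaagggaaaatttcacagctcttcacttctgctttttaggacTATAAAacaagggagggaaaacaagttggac
Il1rn, upstream start, chr2:24336610-24336859, plus strand: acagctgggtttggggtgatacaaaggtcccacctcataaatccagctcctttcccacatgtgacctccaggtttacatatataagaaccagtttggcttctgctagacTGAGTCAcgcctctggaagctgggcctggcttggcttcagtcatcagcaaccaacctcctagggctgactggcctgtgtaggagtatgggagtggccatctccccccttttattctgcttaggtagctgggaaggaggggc
Il1rn, downstream start, chr2:24345171-24345290, plus strand: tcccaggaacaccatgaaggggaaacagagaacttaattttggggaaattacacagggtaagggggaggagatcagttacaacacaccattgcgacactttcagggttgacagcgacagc

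RefSeq gave 13 starts for 9 of the 10 members. In the 250 bases before each start, the κB consensus was found at the upstream start of Nlrp3, 186 bases before it, and in Casp4, where overlapping matches began 93 and 92 bases before the start shown. It was found in 3.9% of the 32851 mouse promoters searched in the same way. TATAAA lay 32 bases before the start of Il1a and 31 before that of Il1b, which is where a TATA box is usually placed, and also 175 bases before the start of Il18. It was found in 12.4% of all promoters. The AP-1 site lay 12 bases before the start of Il1a and 141 before the upstream start of Il1rn, against 6.75% of all promoters. GAGGAA was found at 4 of the member starts (the second Nlrp3 start, Pycard, Casp1 and Il1a) and in 23.3% of all promoters. The last motif searched, TTGCNNAA (C/EBP), was found in Pycard and in 9.56% of all promoters. These matches describe letters and not bound sites.

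Depth was 17290604 to 17799798 fragments in WT libraries and much the same in PGRN KO libraries, at 17087344 to 18821091. Values are FPKM, fragments normalised for gene length and library size. The deleted gene, Grn, was at 161 to 168 FPKM in WT against 0.206 to 0.747 in PGRN KO, which fits the labels. The correlation of log2(FPKM + 1) across genes was 0.991 to 0.992 between libraries of a genotype and 0.978 to 0.981 between genotypes. The summed level of 10 neutrophil markers was 66648 to 71302 FPKM in WT against 68459 to 78119 in PGRN KO. Most of this sum was S100a8, S100a9 and Ngp. Of the 10 markers, 2 were called lower (Mmp8 at -0.45 and Csf3r at -0.16) and 1 higher (Mmp9 at 0.25), with a median of -0.077, and their part in the results was not tested. In bulk samples, fewer cells of a kind and less RNA per cell cannot be told apart.

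Between the genotypes, the antagonist Il1rn and the sensor Nlrp3 were lower in PGRN KO, and no member was called higher. The ligands Il1a and Il1b overlapped between genotypes at high levels. Casp4 and Gsdmd overlapped as well, as did Pycard and Il18 at low levels. Genotypes were compared with limma on log2(FPKM + 1) over 14807 genes, with Benjamini-Hochberg adjustment over all of them and a threshold of 0.05. Of the 10 members, 2 were called lower, beside 9.95% of all genes tested, and 0 were called higher, beside 7.94%. Voom on the fragments called 2 lower and 2 higher, where 8.46% of all genes were called lower and 20.2% higher. The values of the genotypes did not overlap in 4 members, or 40% of them, beside 37.7% of all genes, so the members as a set were close to the background. The median log2 fold change was -0.043 over the members and 0.0026 over all genes.

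**Figure D1:**
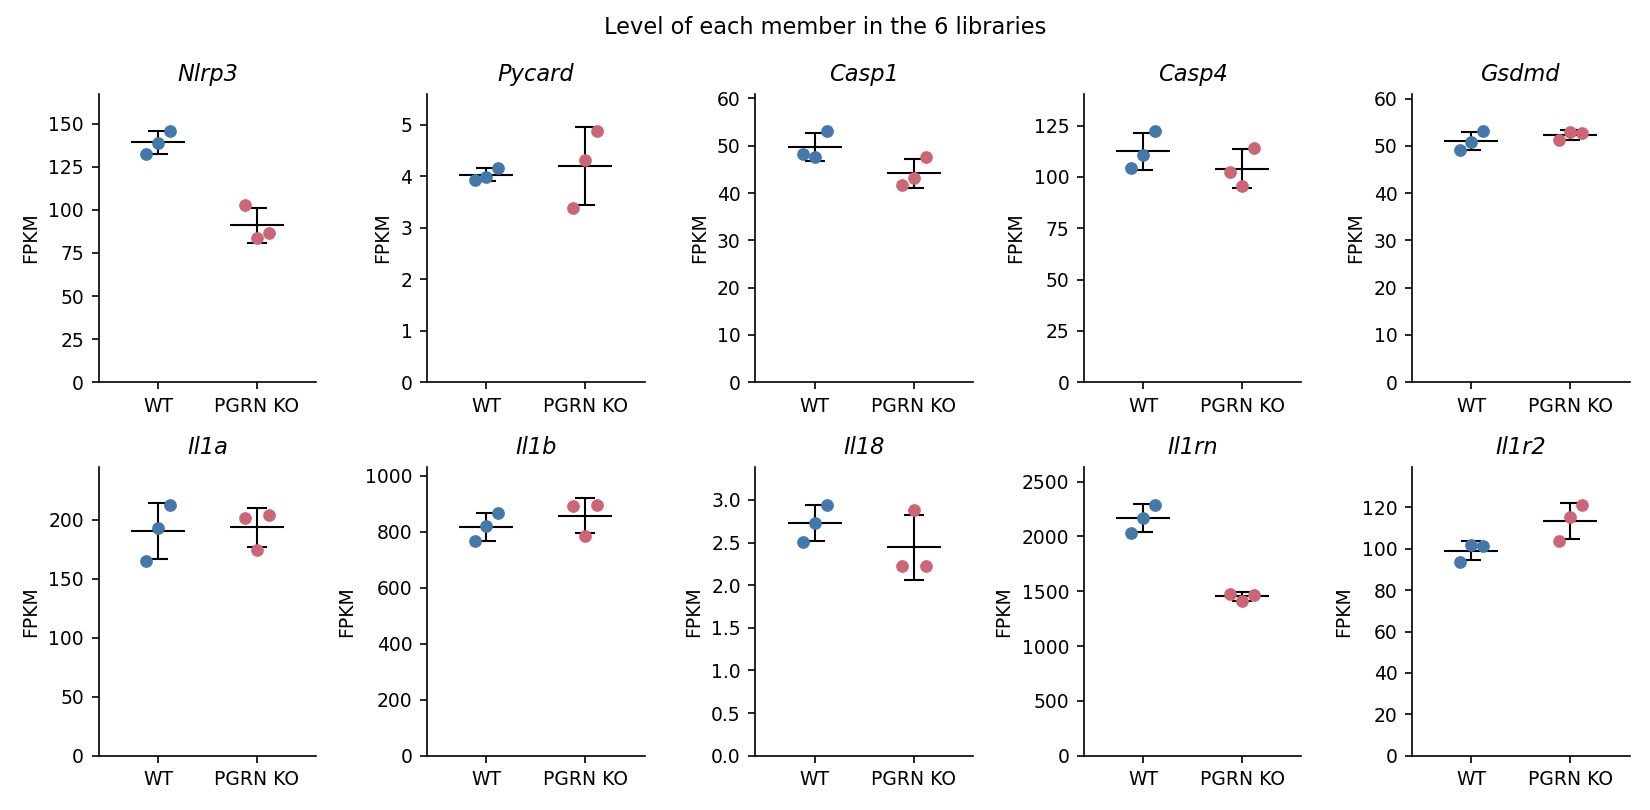
FPKM of each of the 10 members in the 6 libraries (y axis, linear, from 0; each panel has its own scale), with WT in blue and PGRN KO in red. Points are libraries, long bars the mean of 3 and short bars 1 SD; all PGRN KO points lie below all WT points for Nlrp3, Casp1 and Il1rn, and above them for Il1r2.

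Among the inflammasome parts, the sensor moved and the adaptor, the caspases and the pore protein did not pass the test. Nlrp3 (ENSMUSG00000032691, chr11:59541568-59566956, plus strand) encodes the sensor, whose mRNA is known to be induced when neutrophils and macrophages are primed. It was at 133, 139 and 146 FPKM in the WT libraries and at 103, 83.8 and 86.7 in the PGRN KO libraries. The highest PGRN KO library stayed below the lowest WT library. The mean fell by 34.5%, from 139 ± 6.53 to 91.1 ± 10.3 FPKM (SD, n = 3 each), and the log2 fold change was -0.61 (SE 0.083, 95% interval -0.81 to -0.41, adjusted p = 0.00473 by limma). Between 6177 and 10127 fragments stood behind each value.

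Casp1 (chr9:5298517-5307265, plus strand) encodes the caspase that inflammasomes activate. It was at 48.3, 47.7 and 53.1 FPKM in WT against 41.7, 43.1 and 47.6 in PGRN KO. The genotypes did not overlap, but the highest PGRN KO value was just under the lowest WT value. The log2 fold change was -0.17 (95% interval -0.33 to -0.0077), with a limma p of 0.0424 that became 0.139 after adjustment.

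Casp4 (chr9:5308828-5336783, plus strand) lies 1563 bases beyond Casp1 and encodes caspase-11, the sensor of cytosolic lipopolysaccharide in the non-canonical inflammasome. Its level was 104, 111 and 122 FPKM in WT against 102, 95.5 and 114 in PGRN KO, and the genotypes overlapped. The log2 fold change of -0.11 (95% interval -0.31 to 0.086, adjusted p = 0.41 by limma) turned to between 0.0028 and 0.0077 under quantile normalization, plain totals of fragments and voom.

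Pycard (chr7:127989708-127993867, minus strand) encodes ASC, which links sensors to caspase-1. It was the least abundant inflammasome part, at 3.92, 3.99 and 4.16 FPKM in WT against 3.38, 4.32 and 4.87 in PGRN KO. The PGRN KO libraries spread to both sides of WT. In log2 the fold change was 0.036 (95% interval -0.23 to 0.30, adjusted p = 0.858 by limma), and 229 to 364 fragments stood behind each value. It became -0.059 without PGRN KO replicate 6. The exons of Pycard share 485 bases with a gene on the other strand, Gm45205, which was at most at 0.0177 FPKM.

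Gsdmd (chr15:75862327-75867408, plus strand) encodes gasdermin D. It was at 49.2, 50.8 and 53.1 FPKM in WT against 51.2, 53.0 and 52.8 in PGRN KO. All PGRN KO values lay inside the WT range. The log2 fold change was 0.036 with the narrowest interval of the members, -0.069 to 0.14 (adjusted p = 0.63 by limma).

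The ligands Il1a and Il1b were abundant in both genotypes, and neither passed the test. They are neighbours on chr2, separated by 54598 bases and transcribed from the minus strand. Their exons share 222 (Il1a) and 25 (Il1b) bases with genes of the other strand, Gm14023 and Il1bos, which were at most at 2.12 and 1.63 FPKM. Il1b (chr2:129364570-129371139) encodes the ligand that needs caspase-1 or another protease to become active. It was at 767, 822 and 866 FPKM in WT against 892, 786 and 898 in PGRN KO. The lowest PGRN KO library fell among the WT values while the other two lay above them. On the log2 scale the difference was 0.068 (95% interval -0.10 to 0.24, adjusted p = 0.561 by limma). Only voom called it, at 0.19 (adjusted p = 0.0113), or 0.065 relative to the median of all genes on that scale, and its adjusted p reached 0.885 among the alternatives.

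Il1a (chr2:129299610-129309972) encodes the ligand that is active in its full-length form and acts as an alarm signal when cells break open. It was at 165, 193 and 213 FPKM in WT against 202, 174 and 204 in PGRN KO. Every PGRN KO value lay inside the WT range. The difference was 0.026 in log2 (95% interval -0.22 to 0.28, adjusted p = 0.895 by limma), and it was below 0 when WT replicate 1, PGRN KO replicate 4 or PGRN KO replicate 6 was left out, at -0.072, -0.0064 and -0.015.

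Il18 (chr9:50554827-50581840, plus strand) encodes the ligand that drives interferon-γ production by lymphocytes. It was the least abundant member, at 2.51, 2.73 and 2.94 FPKM in WT against 2.23, 2.88 and 2.22 in PGRN KO. The genotypes overlapped, with a log2 fold change of -0.12 (95% interval -0.35 to 0.11, adjusted p = 0.447 by limma). No library held more than 54 fragments of it, so small differences were not detectable at this depth.

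Of the antagonist and the decoy receptor, both of which restrain IL-1, the antagonist was called lower and the decoy receptor did not pass the test. Il1rn (ENSMUSG00000026981, chr2:24336853-24351494, plus strand) was the most abundant member in every library. It was at 2036, 2168 and 2290 FPKM in WT against 1479, 1410 and 1469 in PGRN KO. The PGRN KO libraries lay close together and far below the lowest WT library. The mean fell by 32.9%, from 2165 ± 127 to 1452 ± 37.5 FPKM (SD, n = 3 each), and the log2 fold change was -0.57 (SE 0.055, 95% interval -0.71 to -0.44, adjusted p = 0.0014 by limma). Il1rn took 1.09% to 1.22% of all fragments on genes in WT and 0.825% to 0.855% in PGRN KO. Il1rn has a secreted form and an intracellular form that begin at different starts, and these gene-level values do not separate them.

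Il1r2 (chr1:40074079-40125231, plus strand) encodes the decoy receptor, which neutrophils are known to carry and shed. It was at 93.7, 102 and 102 FPKM in WT against 104, 115 and 121 in PGRN KO. The PGRN KO values all exceeded those of WT, the lowest of them narrowly. The log2 fold change was 0.19 (SE 0.068, 95% interval 0.031 to 0.35), with a limma p of 0.0262 that became 0.101 after adjustment. A call depended on the scaling and on 1 library. Il1r2 was called higher at 0.31 under quantile normalization (adjusted p = 0.0264), plain totals (0.0216) and voom (0.000716), and at 0.25 without PGRN KO replicate 4 (0.0377).

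The scaling matters because the authors' library sizes set PGRN KO lower against WT than plain totals of fragments do, a shift of -0.12 in log2, and voom moved the median of all genes by 0.12. Nlrp3 and Il1rn were lower and called under all 4 other scalings, at -0.49 and -0.45 with plain totals. The 4 are not independent. Scaling by the median ratio between libraries returned nearly the deposited result, at -0.61 and -0.57. Voom used the same library totals as plain totals of fragments. Relative to the median of all genes, Nlrp3 and Il1rn were at -0.62 and -0.58 with voom. They were also called in all 16 alternatives, in which the log2 fold change ran from -0.70 to -0.49 for Nlrp3 and from -0.62 to -0.45 for Il1rn.

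**Figure D2:**
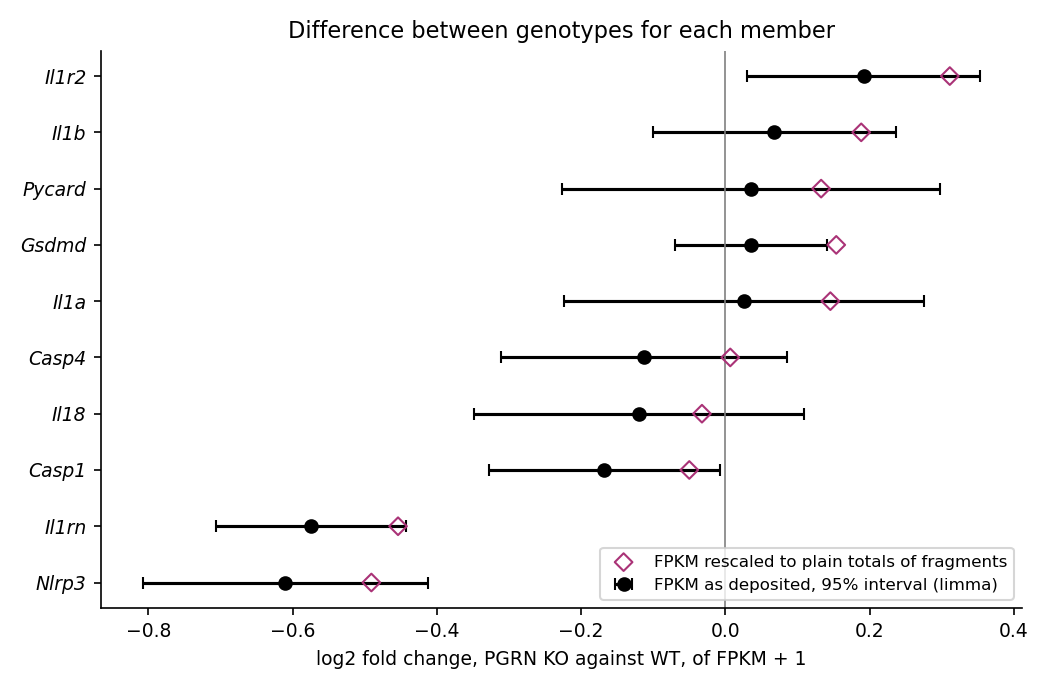
Log2 fold change of FPKM + 1, PGRN KO against WT, for the 10 members (x axis). Filled points with bars are the deposited FPKM with the 95% interval of limma, and open diamonds are the same values rescaled to plain totals of fragments. Nlrp3 (-0.61) and Il1rn (-0.57) lie apart from the others on both scales, all diamonds lie to the right of the points, and that of Casp4 crosses 0.

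The order of levels changed around the middle of the list. In WT it ran Il1rn, Il1b, Il1a, Nlrp3, Casp4, Il1r2, Gsdmd, Casp1, Pycard and Il18, and neighbours overlapped between libraries only for Gsdmd and Casp1. In PGRN KO the first 3 and the last 4 kept their places, while Il1r2 (mean 113 FPKM), Casp4 (104) and Nlrp3 (91.1) followed in that order, each overlapping the next. The mean of Il1rn was 2.65 times that of Il1b in WT and 1.69 times in PGRN KO. In WT the mean of Il1b was 299.8 times that of Il18. Levels between genes rest on the length assigned to each gene, which is the union of its annotated exons: 5535 bases for Il1rn, whose longest coding transcript has 2474, and 3800 for Pycard, whose shortest coding transcript has 493.

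Ratios within a library do not depend on its scaling, and 4 were compared between genotypes with an exact two-sided permutation test, adjusted over the 4. With 3 libraries against 3 the smallest p possible is 0.1, so none could pass. Il1rn over the sum of Il1a and Il1b sets the antagonist against both agonists. It was 2.18, 2.14 and 2.12 in WT against 1.35, 1.47 and 1.33 in PGRN KO, so all 3 PGRN KO libraries lay below the WT libraries, by 0.63 on the log2 scale (exact permutation p = 0.1, adjusted 0.2). The ratio of Nlrp3 to Pycard was 33.9, 34.8 and 35.0 in WT against 30.5, 19.4 and 17.8 in PGRN KO. These groups did not overlap either (log2 difference -0.66, exact permutation p = 0.1, adjusted 0.2), although the PGRN KO libraries spread widely. The ratio of Il1a to Il1b was 0.215, 0.235 and 0.245 in WT against 0.226, 0.221 and 0.227 in PGRN KO, which overlapped (exact permutation p = 0.5). The ratio of Il1r2 to the signalling receptor Il1r1 was 298, 252 and 284 in WT against 357, 247 and 584 in PGRN KO. It overlapped as well (exact permutation p = 0.4, adjusted 0.5), and rested on 116 and 113 fragments of Il1r1 in the 3 libraries of each genotype.

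**Figure D3:**
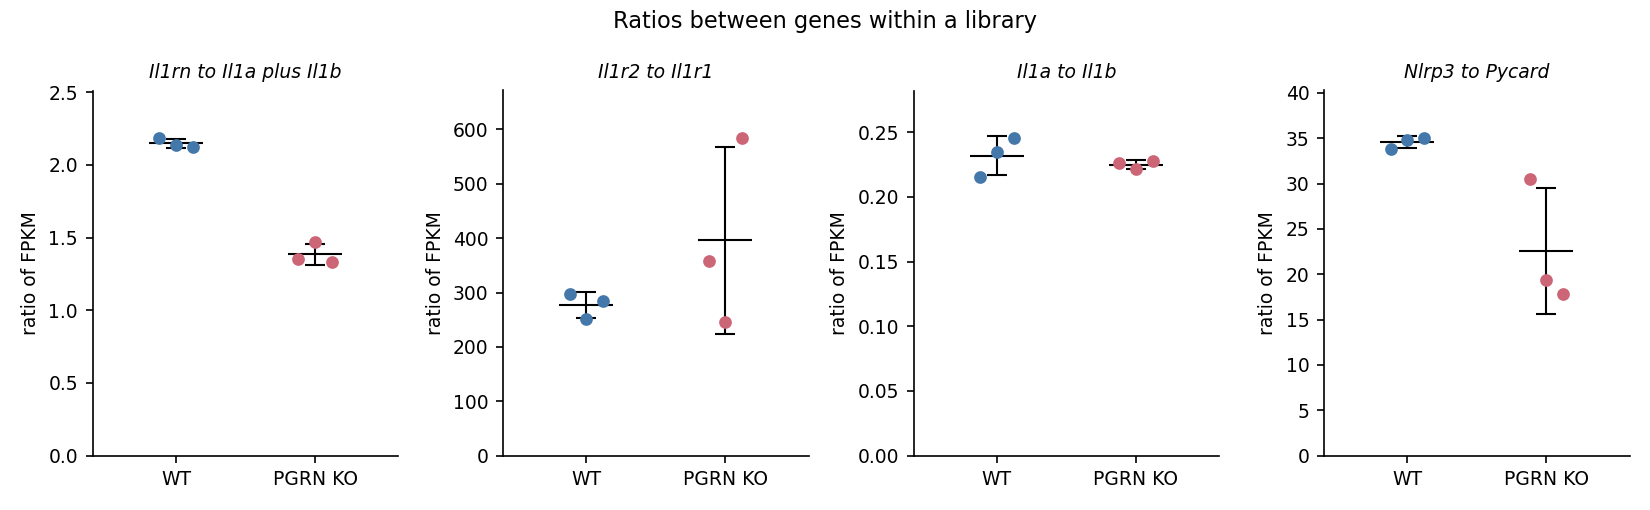
The 4 ratios of FPKM (y axis, linear, from 0; each panel has its own scale) in the WT (blue) and PGRN KO (red) libraries, with the mean (long bar) and 1 SD (short bars) of 3. Il1rn to Il1a plus Il1b is at 2.12 to 2.18 in WT against 1.33 to 1.47 in PGRN KO.

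Around the members, 48 further genes of the pathway were listed and 41 could be tested. Of these, 8 were called lower, beside 9.95% of all genes tested, and 2 higher, beside 7.94%, with a median log2 fold change of -0.046. The split moved with the scaling, to 4 lower and 7 higher with plain totals of fragments, where all genes were called lower in 6.31% and higher in 14.5%, and to 8 lower and 9 higher with voom, where the shares of all genes were 8.46% and 20.2%. With each library left out in turn, 4 to 8 were called lower, with 4 without WT replicate 2, WT replicate 3 or PGRN KO replicate 5 and 5 without PGRN KO replicate 4. The count called higher was 0 to 2, with 0 without WT replicate 1 or 2 and 1 without WT replicate 3 or PGRN KO replicate 6. The calls over all genes fell as well, from 1473 lower to between 775 and 1248 and from 1175 higher to between 540 and 913.

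The other sensors did not pass the test in any of 8 genes. Mefv, which encodes pyrin and was the most abundant of them, was at 79.7, 87.3 and 88.9 FPKM in WT against 83.1, 72.7 and 77.1 in PGRN KO (log2 fold change -0.13, adjusted p = 0.217 by limma). The Naip genes of this list are near copies of each other, and their values are uncertain.

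Among the regulators and effectors, 3 of 11 were lower and 1 was higher. Ninj1, which encodes the protein that tears the plasma membrane after gasdermin pores have opened, was at 439, 435 and 423 FPKM in WT against 334, 314 and 345 in PGRN KO. The 3 PGRN KO libraries were well below WT (log2 fold change -0.38, adjusted p = 0.00319 by limma). Gbp5, an interferon-inducible GTPase linked to NLRP3 assembly, was at 7.91, 8.67 and 8.74 FPKM in WT against 5.99, 5.14 and 5.80 in PGRN KO (-0.51, adjusted p = 0.00519). Both were called in all 16 alternatives. Txnip, which encodes a thioredoxin-binding protein reported to bind NLRP3, was at 60.0, 62.0 and 58.4 FPKM in WT against 40.04, 44.4 and 51.9 in PGRN KO (-0.40, adjusted p = 0.0265). Txnip was called in 10 of 16 alternatives. Among the calls lost were those with plain totals of fragments and without any 1 of the WT replicates or PGRN KO replicate 5. Serpinb1a, an inhibitor of neutrophil serine proteases, was higher, at 126, 129 and 123 FPKM in WT against 139, 150 and 160 in PGRN KO (0.25, adjusted p = 0.0295). It was called in 9 of 16 alternatives. These included all 4 other scalings, which are not independent, but of the 6 left-out libraries only that without PGRN KO replicate 4.

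Among the other ligands and binding proteins, 2 of the 4 tested genes were lower and 1 was higher. Il36g, listed under its older symbol Il1f9, encodes an IL-36 ligand and was at 985, 1016 and 1131 FPKM in WT against 865, 821 and 894 in PGRN KO. The groups did not overlap (-0.28, adjusted p = 0.0287 by limma). Il18bp, which encodes the soluble protein that neutralises IL-18, was at 17.1, 17.1 and 19.5 FPKM in WT against 13.8, 14.7 and 15.3 in PGRN KO (-0.28, adjusted p = 0.0347). Il36g was called in 9 and Il18bp in 6 of 16 alternatives. Each was called under only 2 of the 4 other scalings, which are not independent. Neither call held with plain totals of fragments (adjusted p 0.119 and 0.137 by limma), and the call of Il18bp was lost without any 1 of the 6 libraries. That of Il36g was lost without WT replicate 2 or 3 or PGRN KO replicate 4 or 5. Il33, named after its values were seen, was higher (0.42, adjusted p = 0.0144) on 19 fragments in all of WT and 82 in PGRN KO. The pseudocount shrinks this value: the ratio of mean FPKM was 3.95 and the log2 fold change with voom 2.18. Its call was lost without WT replicate 1 or 2.

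Of the 7 receptor genes, 2 were lower. Il18r1, the ligand-binding chain of the IL-18 receptor, was at 1.77, 2.09 and 1.78 FPKM in WT against 1.17, 0.892 and 0.993 in PGRN KO. It was called in all 16 alternatives (-0.51, adjusted p = 0.00932 by limma). Il1rap, the shared accessory chain of the IL-1, IL-33 and IL-36 receptors, was at 7.84, 8.49 and 8.94 FPKM in WT against 6.55, 5.79 and 6.92 in PGRN KO (-0.35, adjusted p = 0.0262). Its call was lost with plain totals (adjusted p 0.0655) and without WT replicate 2 or 3 or PGRN KO replicate 4 or 5. Il18rap, the accessory chain for IL-18 and the most abundant receptor of the list, was at 21.6, 23.5 and 25.3 FPKM in WT against 18.3, 18.5 and 20.95 in PGRN KO (-0.27, adjusted p = 0.0528).

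In the signalling chain below the receptor, 1 of 11 genes passed. Irak2, the kinase-like protein of the signalling complex, was at 170.2, 171 and 173 FPKM in WT against 139, 123 and 125 in PGRN KO. It was called in all 16 alternatives (-0.41, adjusted p = 0.0046 by limma). Irak3, which restrains the same complex and was the most abundant gene of the list, was at 175, 184 and 185 FPKM in WT against 185, 168 and 183 in PGRN KO and overlapped (-0.025, adjusted p = 0.786).

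**Figure D4:**
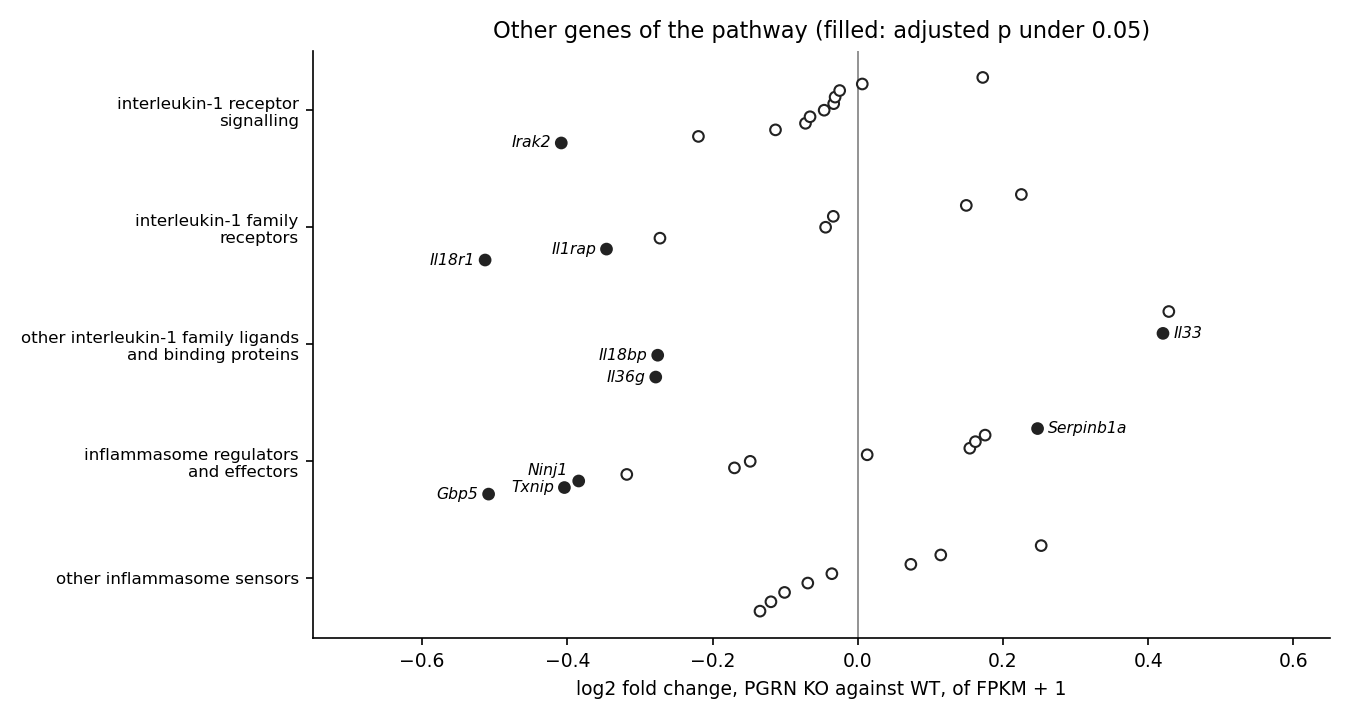
Log2 fold change of FPKM + 1, PGRN KO against WT (x axis), of the 41 tested genes of the pathway other than the members, by list (y axis). Filled points have an adjusted p under 0.05 by limma and are named, 8 to the left of 0 and 2 to the right; with plain totals of fragments the split is 4 lower and 7 higher.

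Among the genes whose levels ran most like Nlrp3 over the 6 libraries were Tnfrsf1b (Pearson r = 0.999) and Pfkfb3 (0.998), of 9248 genes with a mean of at least 1 FPKM. In 502 of those genes r was above 0.95, and the 6 points share the difference between genotypes. In the same libraries the fungal receptors Clec4n (-0.79) and Clec7a (-0.62) and the signalling genes Malt1 (-0.73) and Syk (-0.29) were called lower, while Card9 was at 0.0069 (adjusted p = 0.972 by limma).

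Markers of other cells and of immature neutrophils moved with the genotype. The summed level of 5 primary granule genes was 129 to 144 FPKM in WT against 609 to 670 in PGRN KO, and all 5 were higher. Of the 10 monocyte and macrophage markers, 7 could be tested, of which 1 was higher and 3 were lower, and their sum was 527 to 533 FPKM in WT against 552 to 700 in PGRN KO. The B and plasma cell sum was 24.4 to 26.6 FPKM in WT against 71.6 to 86.9 in PGRN KO (4 of 4 tested genes higher). The basophil and mast cell sum was 2.04 to 2.47 against 11.01 to 12.5 FPKM (4 of 5 higher), and the erythroid sum 0.975 to 3.14 against 5.46 to 6.21 (3 of 4 higher). The dendritic cell sum was 0.759 to 0.915 against 0.419 to 0.487 FPKM, with 0 of 2 tested genes called. The T and NK cell sum was at most 0.779 FPKM in any library, and 2 of its 6 genes, Cd3e and Cd3g, were at 0 in all. The part of these cells in the levels of Nlrp3 and Il1rn was not tested.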

How the data were processed

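Neutrophil RNA was selected for poly-A and sequenced, and per the labels' processing notes the tools were CASAVA, HISAT2 2.0.5, featureCounts 1.5.0-p3 and DESeq2 1.20.0 on mm10 (GRCm38), whereas the study's methods name HISAT and HTSeq. The authors deposited FPKM values for 54532 genes in 6 libraries. FPKM times gene length gave whole fragments (within 0.05) for 100% of values above 0. Because the table holds FPKM, the authors' count test was replaced by limma 3.58.1 (lmFit, eBayes with trend, R 4.3.3) on log2(FPKM + 1), over genes whose FPKM averaged 0.1 or more, two-sided, with Benjamini-Hochberg adjustment; a pseudocount understates changes of low genes. The fit was also run on simulated data with a fixed spread and no scaling shift between genotypes, which does not test it on these data. Python 3.11.15, pandas 2.3.3 and scipy 1.17.1 were used. The alternatives were other pseudocounts, filters, scalings, eBayes settings, voom on the recovered fragments, and each library left out. The members, lists and tests were chosen with earlier results of these data known. All members are named, and of each pathway list the most abundant gene and up to 6 called genes with a mean of at least 1 FPKM. Positions are those of the deposited table: start and end equal GENCODE M21 for 53499 of 54409 common gene IDs. No source used here states whether counting used strand. Of the genes most like Nlrp3 that the rule for named genes selects, 1 is not reported here.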

Additional observations from a re-analysis of the deposited data

How the results depend on the processing

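In 16 alternatives the 2 members called lower stayed at 2, while the count of all genes called lower ran from 775 to 1598. Nlrp3 and Il1rn kept their direction and call in each, with highest adjusted p-values of 0.0294 and 0.0152 by limma. The members called higher, 0 as reported, were 1 under quantile normalization, 1 with plain totals of fragments and 2 with voom on recovered fragments. Of all genes, 7.73%, 14.5% and 20.2% were called higher under these scalings, in that order. With a library left out, 0 to 1 members were called higher (1 without PGRN KO replicate 4, beside 913 of 14807 genes). The pathway genes called higher, 2 as reported, were 1 with every gene above 0 tested, beside 864 of 22918 genes. They were 7 with plain totals and 9 with voom, beside the shares just given. With eBayes without trend they were 1, beside 1093 of 14807 genes, and with a library left out 0 to 2, beside 540 to 913. The pathway genes called lower, 8 as reported, were 5 with every gene above 0, beside 1173 of 22918 genes. They were 4 with plain totals, beside 6.31% of all genes, and 4 to 8 with a library left out, beside 775 to 1248 genes. The count rose to 9 with a pseudocount of 0.1 or 0.5, beside 1475 and 1481 of 14807 genes. It was 11 over genes with a mean of at least 1 FPKM, beside 1598 of 9249. The sign of the log2 fold change turned for Casp4 (0.0028 with quantile normalization, 0.0069 with plain totals, 0.0077 with voom), for Il1a (-0.072 without WT replicate 1, -0.0064 without PGRN KO replicate 4, -0.015 without PGRN KO replicate 6, in a range up to 0.11 without WT replicate 3) and for Pycard (-0.059 without PGRN KO replicate 6, in a range up to 0.15 without PGRN KO replicate 4); none of these passed the threshold either way. The direction of Casp1, Gsdmd, Il18, Il1b and Il1r2 held in all 16. Causes beyond the scalings' own construction were not tested. No paired analysis was possible because the genotypes share no replicate numbers. Depth limits what can be said of low genes such as Il18, with 41 to 54 fragments in a library.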
